A study of Mus musculus with 2 samples.

Results

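Leukocytes carry a small set of microRNAs (miRNAs) that other cells make little of or switch on mainly in inflammation, and 7 such genes were followed in gastrocnemius, the large calf muscle: Mir142, Mir223, Mir150, Mir342, Mir155, Mir146 (the older symbol of Mir146a) and Mir146b. They were taken by symbol from the GENCODE M21 annotation and are 7 of 2202 annotated miRNA genes. The muscle was that of adult female B6CASTF1/J hybrids aged 18 to 20 months, bought from The Jackson Laboratory, and no treatment, transgene or second group is named. Short RNAs were sequenced from 2 libraries, biological replicates 2 and 1 of a single group. The labels give both libraries the same donor but separate tissue samples, and how many animals were used is not clear. Technical and biological spread between the libraries therefore cannot be told apart. Replicate 2 held 2177048 sense counts on miRNA genes and replicate 1 held 865419, and levels are given in CPM, the count per 1000000 of these.

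A miRNA is cut from a hairpin transcript and guides the silencing complex to messenger RNAs that pair with its seed, bases 2 to 8 counted from the 5′ end. Mir142 is made throughout the blood lineage and is a general mark of leukocytes. Mir223 belongs to neutrophils, monocytes and other myeloid cells, where it restrains granulocyte activation. Mir150 marks mature lymphocytes and represses Myb, and Mir342 is high in lymphoid cells, although its host gene Evl, an actin regulator, is not confined to them. Mir155, cut from the noncoding RNA Bic, is switched on in activated macrophages and lymphocytes and lowers Socs1 and the phosphatase gene Inpp5d. Mir146 is induced by NF-kB and feeds back on Traf6 and Irak1, and Mir146b carries the same seed. Endothelial cells and fibroblasts can also make Mir155 and Mir146, so these are the members least tied to one cell type.

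The mature sequences below are printed to show which of these arms share a seed. They were read from the RefSeq table of build GRCm38.p6, which matched 6 of the 7 members, all but Mir150, and placed each of the 6 hairpins where GENCODE does. Seeds are in capitals, and the count files do not tell the arms of a hairpin apart.
Mir142, mmu-miR-142a-3p: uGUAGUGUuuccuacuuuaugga
Mir142, mmu-miR-142a-5p: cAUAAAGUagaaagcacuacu
Mir223, mmu-miR-223-3p: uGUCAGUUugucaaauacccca
Mir342, mmu-miR-342-3p: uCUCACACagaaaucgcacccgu
Mir155, mmu-miR-155-5p: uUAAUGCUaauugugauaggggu
Mir146, mmu-miR-146a-5p: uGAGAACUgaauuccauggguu
Mir146b, mmu-miR-146b-5p: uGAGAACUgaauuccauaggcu

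Mir146 and Mir146b share the seed GAGAACU and are identical over their first 17 bases. They differ at 2 of 22 bases, G18A and U21C, counted from the 5′ end with the Mir146 base first. None of the other 5 sequences shares its seed with a mature miRNA of another gene among the 1738 in the table. The longest run that the Mir223, Mir342 and Mir155 arms share with another hairpin on either strand is 10, 11 and 9 bases. Multimapping reads are tallied apart in the files and add nothing to a gene, so distinct sequence matters for these values.

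The members that differed most between the libraries were Mir142 and Mir223, and their hairpins are shown with both mature arms in capitals.
Mir142 hairpin, chr11:87756864-87756927, plus strand: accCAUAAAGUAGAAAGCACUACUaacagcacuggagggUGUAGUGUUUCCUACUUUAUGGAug
Mir223 hairpin, chrX:96242817-96242926, plus strand: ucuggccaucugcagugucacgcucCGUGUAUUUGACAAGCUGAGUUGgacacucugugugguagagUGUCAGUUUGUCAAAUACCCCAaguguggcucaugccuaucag

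Mir142 (ENSMUSG00000105196.1) lies in an intron of the noncoding RNA Mir142hg, and an annotated miRNA gene, Mir142b, lies over it on the opposite strand. The sense column gave Mir142b 0 counts in both libraries, and the antisense column of Mir142 was also at 0, so every read at this locus was counted on the Mir142 strand. Mir223 (ENSMUSG00000076066.1) overlaps an exon of the noncoding RNA F630028O10Rik, and its nearest protein-coding gene, 4277 bases away, is Vsig4. Mir155 (chr16:84714140-84714204, plus strand) lies in an exon of Mir155hg, the annotation's name for Bic. Mir342 (chr12:108658620-108658718, plus strand) lies in an intron of Evl, and Mir146b (chr19:46342762-46342870, plus strand) in an intron of Mfsd13a. Mir150 (chr7:45121757-45121821, plus strand) and Mir146 (chr11:43374397-43374461, minus strand) overlap no other annotated gene. No member belongs to a tight miRNA cluster apart from the Mir142 and Mir142b overlap, since the nearest other miRNA gene is 5097 bases from Mir150 and at least 63130 bases from each remaining member.

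All 7 members had counts in both libraries, and together they took 0.493% of gene counts in replicate 2 and 0.444% in replicate 1, with exact 95% Clopper-Pearson bounds of 0.484 and 0.503 in replicate 2 and of 0.431 and 0.459 in replicate 1. This was a mean of 0.469% ± 0.0345 (SD, n = 2). The lymphoid members and the inflammatory members made up most of this in both libraries, though less of it in replicate 1. Mir150 and Mir342 held 42.6% of the members' counts in replicate 2 and 45.2% in replicate 1. Mir155, Mir146 and Mir146b held 53.0% in replicate 2 and 43.0% in replicate 1. Mir142 held 1.95% in replicate 2 and 5.54% in replicate 1, and Mir223 held 2.49% and 6.27% in the same order. In whole tissue, fewer cells of a type and less RNA per cell cannot be told apart.

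**Figure D1:**
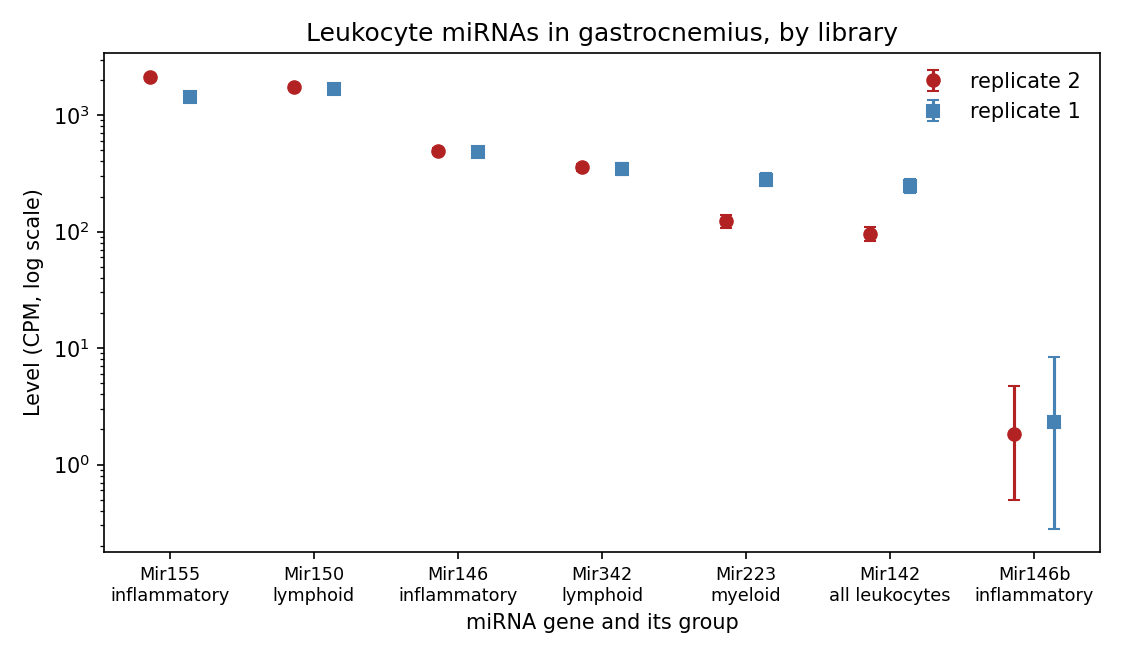
Level of each of the 7 members in CPM on a log scale, with replicate 2 as circles and replicate 1 as squares; bars are exact Poisson 95% intervals and cover counting error only, and under each gene stands its group. Mir150, Mir146 and Mir342 sit at nearly the same height in both libraries, Mir155 is higher in replicate 2, Mir223 and Mir142 are lower in replicate 2, and Mir146b lies near 2 CPM.

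Mir142 had 209 counts in replicate 2 and 213 in replicate 1, although replicate 2 was sequenced more deeply. This gave 96.0 CPM in replicate 2 (exact Poisson 95% interval 83.4 to 110) and 246 CPM in replicate 1 (214 to 281). Mir142 was therefore lower in replicate 2, and it ranked 156 among all miRNA genes there and 106 in replicate 1.

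Mir223 behaved like Mir142. It had 267 counts in replicate 2 and 241 in replicate 1, or 123 CPM in replicate 2 (108 to 138) and 278 CPM in replicate 1 (244 to 316). The counting intervals of the libraries lay well apart for both genes. Within a library Mir223 stood close to Mir142, at 1.28 times its counts in replicate 2 (exact interval 1.06 to 1.54) and 1.13 times in replicate 1 (0.937 to 1.37).

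The lymphoid members differed little between the libraries when scaled by library totals. Mir150 had 3802 counts in replicate 2 and 1439 in replicate 1, or 1746 CPM in replicate 2 (1691 to 1803) and 1663 CPM in replicate 1 (1578 to 1751). Mir342 had 773 counts in replicate 2 and 298 in replicate 1, or 355 CPM in replicate 2 (330 to 381) and 344 CPM in replicate 1 (306 to 386). The counting intervals of the libraries overlapped for both genes. The count of Mir342 relative to Mir150 was 0.203 in replicate 2 (0.188 to 0.220) and 0.207 in replicate 1 (0.182 to 0.235).

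Of the inflammatory members, Mir155 was higher in replicate 2, Mir146 was nearly equal by library totals and Mir146b was near the floor of 3 counts, below it in replicate 1. Mir155 had 4615 counts in replicate 2 and 1239 in replicate 1, or 2120 CPM in replicate 2 (2059 to 2182) and 1432 CPM in replicate 1 (1353 to 1514). Mir146 had 1066 counts in replicate 2 and 414 in replicate 1, or 490 CPM in replicate 2 (461 to 520) and 478 CPM in replicate 1 (433 to 527). Mir146b had 4 counts in replicate 2 and 2 in replicate 1, or 1.84 CPM in replicate 2 (0.501 to 4.70) and 2.31 CPM in replicate 1 (0.280 to 8.35).

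Among counted reads, the shared seed of the pair came almost wholly from Mir146. Mir146 exceeded Mir146b by 267 to 1 in replicate 2 (exact interval 104 to 980) and by 207 to 1 in replicate 1 (56.9 to 1715), where the 2 counts of Mir146b leave the ratio poorly fixed. The 17 bases that both mature sequences share are part of a 22-base sequence, and how the counting treated reads cut to that shared stretch was not tested. At these counts a difference in Mir146b between the libraries was not detectable.

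By mean level the order was Mir155 (1776 ± 487 CPM), Mir150 (1705 ± 59.1 CPM), Mir146 (484 ± 7.97 CPM), Mir342 (350 ± 7.58 CPM), Mir223 (201 ± 110 CPM), Mir142 (171 ± 106 CPM) and Mir146b (2.07 ± 0.335 CPM), each with its SD over 2 libraries. Mir155 and Mir150 cannot be ordered: Mir155 had 1.21 times the counts of Mir150 in replicate 2 (1.16 to 1.27) and 0.861 times in replicate 1 (0.797 to 0.930). Mir146 stood above Mir342 in both libraries, by 1.38 times in replicate 2 (1.26 to 1.51) and 1.39 times in replicate 1 (1.19 to 1.62). Mir223 had more counts than Mir142 in both libraries, beyond counting error in replicate 2 and within it in replicate 1. Divided by the length of the annotated hairpin, mean levels were 27.3 CPM per base for Mir155, 26.2 for Mir150, 7.45 for Mir146 and 3.53 for Mir342. They were 2.67 for Mir142, 1.82 for Mir223 and 0.0190 for Mir146b, so Mir142 and Mir223 change places on that scale. The change follows the annotated hairpin lengths, 64 bases for Mir142 and 110 for Mir223. The printed mature arms of both genes are 21 to 23 bases long, so it does not show that Mir142 was the more abundant.

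The myeloid member and the general leukocyte member thus had fewer read counts than the lymphoid member Mir150 in both libraries. Mir142 had 0.0550 times the counts of Mir150 in replicate 2 (exact interval 0.0476 to 0.0632) and 0.148 times in replicate 1 (0.128 to 0.171). Mir223 had 0.0702 times the counts of Mir150 in replicate 2 (0.0618 to 0.0795) and 0.167 times in replicate 1 (0.146 to 0.192). These are ratios of read counts of different miRNAs, which give no number of cells.

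Between the libraries, 2 of the 6 members that could be tested were called, Mir142 and Mir223, both lower in replicate 2. The 305 genes whose count averaged 10 or more were tested by a conditional binomial test (exact, two-sided) that takes library totals into account, with p adjusted over all of them after Benjamini and Hochberg. A called gene had an adjusted p below 0.05 and at least a 2-fold difference. Mir146b had too few counts to be tested. Over all tested genes 33.8% were called, 26.9% higher and 6.89% lower in replicate 2, and 2 of 6 lies near the share called either way. Both called members were lower in replicate 2, the rarer direction, but 2 genes are too few to set a share against 6.89%. The test measures counting error in these libraries and says nothing of animals or conditions. Of all calls, 79.6% were higher in replicate 2, against 67.3% with TMM factors and 66.3% with DESeq2 size factors.

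Mir142 stood at a ratio of 0.390 in replicate 2 over replicate 1 (exact interval 0.321 to 0.474; adjusted p = 1.31e-20 by the exact test), which is 2.56-fold lower in replicate 2. Mir223 stood at 0.440 (0.369 to 0.526; adjusted p = 7.42e-19 by the exact test), or 2.27-fold lower in replicate 2. Mir155 stood at 1.48 (1.39 to 1.58; adjusted p = 3.82e-36 by the exact test), past the p threshold but short of the required ratio. Mir150, Mir342 and Mir146 stood at 1.05 (0.988 to 1.12), 1.03 (0.901 to 1.18) and 1.02 (0.913 to 1.15), with adjusted p of 0.156, 0.732 and 0.755 by the same exact test. The highest upper bound among these 3 genes was thus 1.18, for Mir342.

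**Figure D2:**
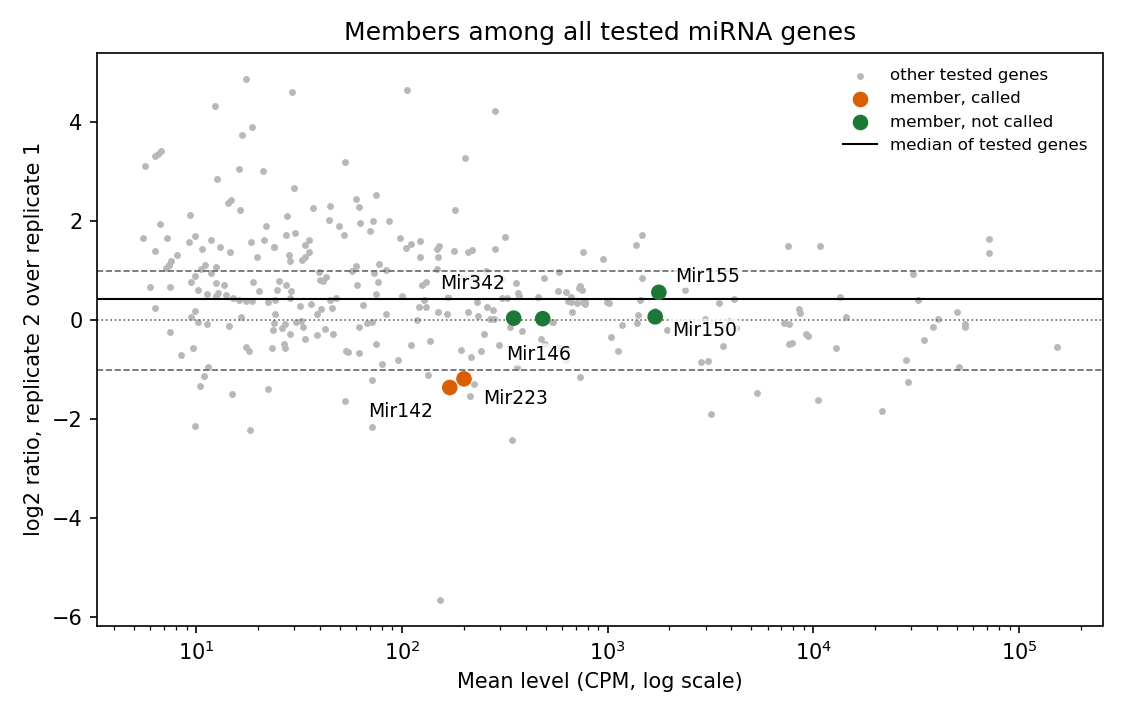
log2 ratio of replicate 2 over replicate 1 against mean level in CPM (log scale) for the 305 tested miRNA genes in grey, with the 6 tested members named and coloured by whether they were called; the solid line is the median of all tested genes, the dotted line equal levels and the dashed lines a ratio of 2 either way. Mir142 and Mir223 lie below the lower dashed line, Mir155 lies just above the median and the other 3 members lie between 0 and the median.

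The libraries differed widely in many genes, and the members were set against that spread. The median tested gene had a log2 ratio of 0.43 and the SD across genes was 1.25. Mir142 had a log2 ratio of -1.36, and 13 tested genes lay lower; Mir223 had -1.18, and 18 lay lower. Yet 39 of 305 tested genes (12.8%) lay farther from the median, in either direction, than Mir142, and 46 (15.1%) lay farther than Mir223. Mir155 was 0.13 above the median, and Mir150, Mir342 and Mir146 were 0.36, 0.39 and 0.40 below it on the log2 scale. Scaling moved all ratios by one amount, 0.28 lower with TMM factors and 0.34 lower with DESeq2 size factors. Mir142 and Mir223 remained called and lower with both, while Mir150, Mir342 and Mir146 changed sign to between -0.31 and -0.21.

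Ratios between miRNAs of one library do not depend on its total. They restate the values above on a scale that no library factor can move, and add no separate test. Relative to Mir150, Mir142 in replicate 2 was 0.371 times what it was in replicate 1 (exact interval 0.302 to 0.456) and Mir223 was 0.419 times (0.347 to 0.507). On the same scale Mir342 was 0.982 times (0.846 to 1.14) and Mir146 was 0.975 times (0.855 to 1.11), so these members kept their proportion to Mir150 within counting error. Mir155 was 1.41 times (1.29 to 1.54) relative to Mir150.

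Blood left in the tissue brings red cell miRNAs, of which Mir451a is the defining one, so the members were also set against it. Mir451a had 573 counts in replicate 2 (263 CPM) and 176 in replicate 1 (203 CPM), a ratio of 1.29 (1.09 to 1.54), and Mir144 of the same red cell transcript had 114 and 23 counts. The red cell miRNAs were not called. By library totals their ratios lay above 1 and those of Mir142 and Mir223 below it. The log2 ratio was 0.37 for Mir451a and 0.98 for Mir144, against 0.43 for the median tested gene. Whether blood had a part in the members' values was not tested. Relative to Mir451a, Mir142 in replicate 2 was 0.301 times (0.232 to 0.392) and Mir223 0.340 times (0.265 to 0.437) what it was in replicate 1. Mir150, Mir342 and Mir146 were 0.812 (0.674 to 0.973), 0.797 (0.638 to 0.993) and 0.791 (0.641 to 0.974) times, with upper bounds just below 1. Mir155 was 1.14 times (0.9497 to 1.37), so its excess in replicate 2 was not beyond counting error when set against Mir451a. Relative to Mir126a, the endothelial miRNA, Mir142 and Mir223 were 0.348 (0.286 to 0.424) and 0.393 (0.329 to 0.470) times, and Mir155 was 1.32 times (1.24 to 1.41).

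**Figure D3:**
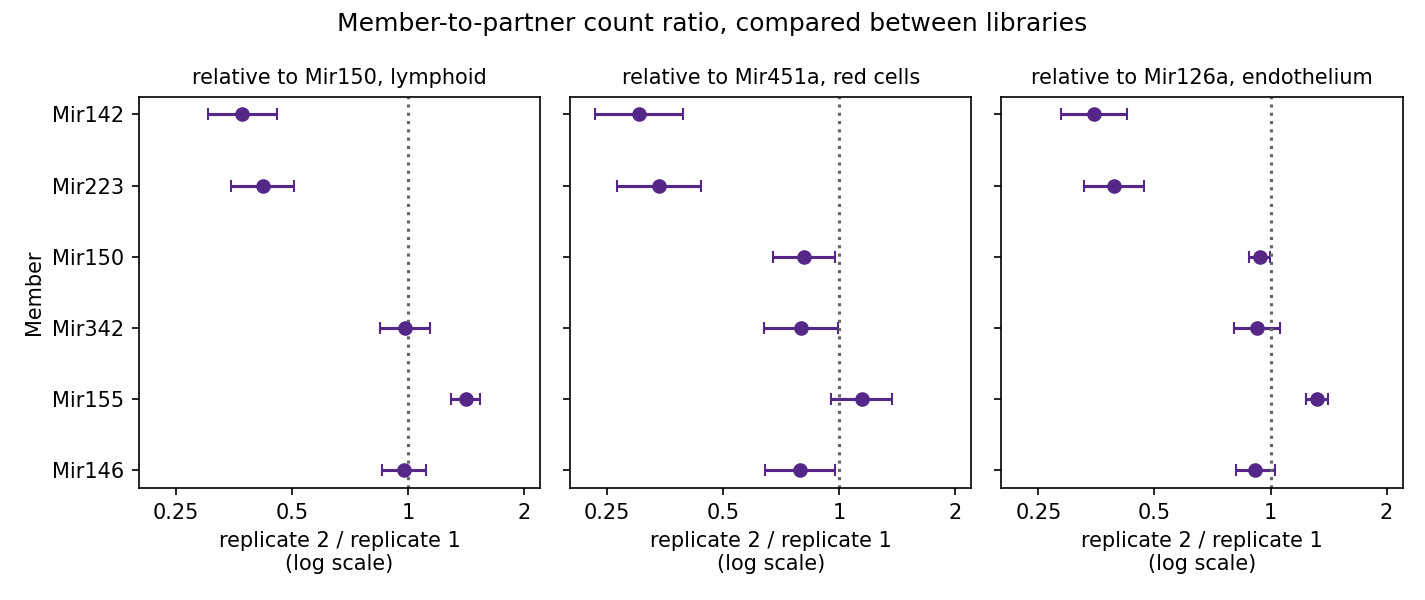
Count ratio of each member to Mir150, Mir451a and Mir126a, given as the ratio in replicate 2 over that in replicate 1 on a log scale, with exact 95% intervals that cover counting error only; the dotted line marks no difference, and Mir146b, with 4 and 2 counts, is left out. Mir142 and Mir223 lie at 0.301 to 0.419 against all 3 partners, while Mir150, Mir342 and Mir146 lie at 0.791 to 0.982.

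Genes whose levels in both libraries came closest to a member's were found by the Euclidean distance of log2(CPM + 1) over the 2 libraries among tested genes. The nearest to Mir142 was Mir223, at a distance of 0.39, followed by Mir26a-2 at 0.42. Mir223 lay nearest to Mir203 (0.21) and Mir26a-2 (0.24). Mir150 lay nearest to Mir193b (0.090) and Mir93 (0.33), Mir155 to Mir193b (0.26) and Mir150 (0.35), Mir342 to Mir1843a (0.16) and Mir16-1 (0.26), and Mir146 to Mir664 (0.22) and Mir30b (0.25). Mir146b, itself too low to test, lay nearest to Mir5121 (1.73) and Mir7068 (1.801). Genes at its own level were left out of the search by the count filter. Its distances therefore cannot be compared with those of the other members. With 2 libraries such nearness describes level and ratio only, and the levels of Mir26a-2 and Mir16-1, which have copies, are lower bounds.

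Other miRNAs of the same roles were mixed. Of 4 other myeloid genes, all tested, 1 was called lower in replicate 2 and the other 3 missed the call. Over all tested genes 33.8% were called, 6.89% of them lower in replicate 2, and 4 genes are too few to set against these shares. The list's median log2 ratio was -0.04, against 0.43 for all tested genes. The called gene, named after its values were seen, was Mir511, which lies in the gene of the macrophage mannose receptor Mrc1. With 27 counts in replicate 2 and 28 in replicate 1, it stood at a ratio of 0.383 (0.217 to 0.675; adjusted p = 0.000885 by the exact test), close to those of Mir142 and Mir223. Mir322, whose human counterpart rises in monocyte differentiation but which muscle precursors also make, reached 3025 CPM in replicate 2 against 2962 CPM in replicate 1, and Mir130a stood at 1129 and 1211 CPM. Mir503, transcribed beside Mir322, had 88 and 28 counts in the same order.

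Of 11 tested genes among 14 other lymphoid miRNAs, 2 were called higher in replicate 2, 0 were called lower and 9 were not called. The shares over all tested genes were 26.9% higher and 6.89% lower. The list's median log2 ratio was 0.11. The 3 most abundant were not called: Mir92-1 and Mir17, of a cluster that promotes lymphocyte growth and is also made by many dividing cells, reached 1451 and 890 CPM in replicate 2 against 1347 and 1360 CPM in replicate 1. Mir181b-2, of a family that tunes T cell receptor signalling, reached 921 CPM in replicate 2 against 1159 CPM in replicate 1. The called genes, Mir181c and Mir181d, are named after their values were seen, and stood at ratios of 2.77 (2.05 to 3.84) and 2.72 (2.11 to 3.55). None of these miRNAs is made by one cell type alone. Mir92-1 and the Mir181a and Mir181b genes have a copy elsewhere with the same mature sequence, so their counts are lower bounds.

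Of 5 tested genes among 6 other inflammatory miRNAs, 1 was called higher in replicate 2, 1 lower and 3 were not called. With 33.8% of all tested genes called either way, 5 genes are too few to tell this list from the rest. Its median log2 ratio was 0.89. Mir21a, induced in macrophages and in activated fibroblasts, was the lower one, at 5232 CPM in replicate 2 against 15929 CPM in replicate 1, a ratio of 0.328 (0.320 to 0.337). Mir132, induced by CREB, reached 341 CPM in replicate 2 against 171 CPM in replicate 1, a ratio of 1.996 (1.67 to 2.40) just short of the threshold, and Mir221 stood at 852 and 660 CPM. The higher one, Mir222, is named after its values were seen, at a ratio of 2.42 (1.84 to 3.22).

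Markers of other cell types also differed between the libraries, and their part in the results was not tested. The skeletal muscle list took 10.4% of replicate 2 and 4.07% of replicate 1, carried by Mir206 (103232 CPM in replicate 2 and 40388 CPM in replicate 1), and Mir133a-2 alone of its 6 genes was too low to test. Other muscle miRNAs lay on opposite sides of a ratio of 1 and were not called: Mir1a-2 stood at 162 CPM in replicate 2 against 270.4 CPM in replicate 1, and Mir133b at 55.6 CPM in replicate 2 against 40.4 CPM in replicate 1. The Mir1a, Mir133a, Mir199a and Mir199b genes share mature sequences with copies, so their counts are lower bounds. The smooth muscle list, Mir143 and Mir145a, held 3.80% in replicate 2 and 7.54% in replicate 1, and both genes lay on the same side as Mir142 and Mir223, at ratios of 0.520 and 0.362. The endothelial list held 5.30% in replicate 2 and 4.73% in replicate 1, all of it from Mir126a, since Mir126b was at 0 in both libraries. The fibroblast list held 0.138% and 0.0633% in the same order, with Mir214 higher in replicate 2 at a ratio of 2.37 (2.15 to 2.61), Mir199b at 0.822 (0.568 to 1.21) and Mir199a-2 lower in replicate 2 at 0.398 (0.170 to 0.931), from 13 counts in each library.

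**Figure D4:**
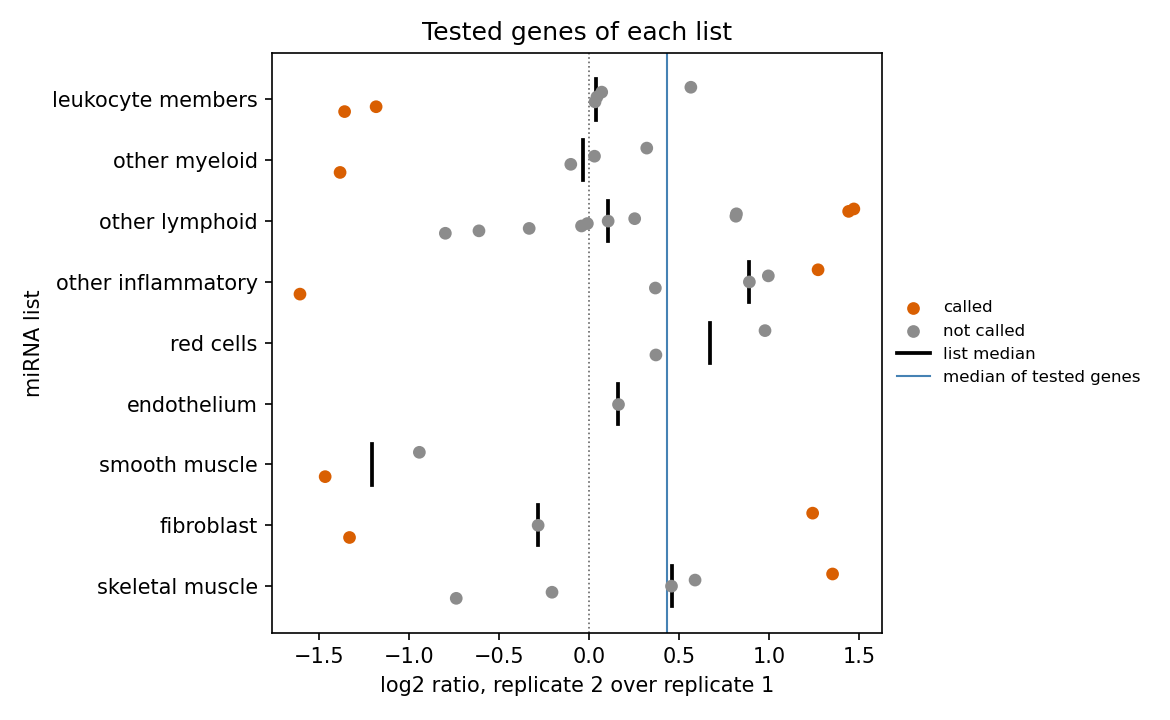
log2 ratio of replicate 2 over replicate 1 for each tested gene of the leukocyte members and of the 8 other lists, one point per gene spread vertically for legibility, with called genes in orange, the list median as a black bar and the median of all 305 tested genes as a blue line. The members' median is 0.04. It is -0.04 for the other myeloid list, 0.11 for other lymphoid, 0.89 for other inflammatory and 0.68 for red cells. It is 0.16 for the single tested endothelial gene, -1.20 for smooth muscle, -0.28 for fibroblast and 0.46 for skeletal muscle. The called members lie at -1.36 and -1.18. Called genes of the other lists lie on both sides. Mir511 is at -1.38, Mir199a-2 at -1.33, Mir145a at -1.47 and Mir21a at -1.61. Mir214 is at 1.24, Mir222 at 1.27, Mir206 at 1.35, Mir181d at 1.44 and Mir181c at 1.47.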

How the data were processed

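The authors deposited raw, unscaled read counts, 1 line per miRNA gene, on assembly mm10 with annotation GENCODE M21 per the deposited README; which aligner, counter and trimming were used is not given in the sources used here. The 3 count columns have no header and, from their values, are unstranded, sense and antisense; sense was used. Multimapping reads (71.0% of reads in replicate 2, 80.7% in replicate 1), other tallies and unassigned reads stayed out of library sizes. Gene counts were 18.1% and 12.6% of reads in the same order.

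CPM, exact intervals and exact binomial tests were computed in Python 3.11.15 with SciPy 1.17.1; TMM and DESeq2 size factors came from edgeR 4.0.16 (tested genes) and DESeq2 1.42.0 (genes with counts in both libraries). The test was checked on simulated counts with set changes and counting error only, so the check does not cover other spread between libraries. Intervals and the floor of 3 counts (1.38 CPM in replicate 2, 3.47 in replicate 1) cover counting error only.

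Named are all members, the 2 nearest tested genes to each, and the 3 most abundant of each list. Members and lists were chosen with earlier results of these data known. The alternatives changed the count column, the filter, the ratio threshold or the scaling, one at a time.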

Additional observations from a re-analysis of the deposited data

How the results depend on the processing

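The 7 members held 0.587% of gene counts with the unstranded column, 0.553% with Mir378a left out of the library size and 0.469% as reported; leaving out each library in turn gave 0.444% to 0.493%. The number of genes called was 103 as reported, 50 with a mean of at least 100 counts (170 genes tested) and 207 with no ratio threshold; it was 92 to 105 under the other 5 alternatives. The number of members called was 1 with the unstranded column, in which the reads of Mir142 are ambiguous with Mir142b and Mir142 is at 0, and 3 with no ratio threshold, where Mir155 joined. Mir142 and Mir223 kept their direction and their call under both other scalings and with Mir378a left out.

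The sign of 3 members that were not called depended on the scaling, and so did their adjusted p by the exact test. For Mir150 it was 7.08e-06 with TMM factors and 8.84e-09 with DESeq2 size factors. In the same order it was 0.0291 and 0.00556 for Mir342, and 0.00647 and 0.000675 for Mir146. All 3 stayed short of the required ratio. The log2 ratio of Mir150 was 0.07 as reported, -0.0209 with the unstranded column, -0.0270 without Mir378a, -0.21 with TMM factors and -0.27 with DESeq2 size factors. For Mir342 the values in the same order were 0.04, -0.0475, -0.0535, -0.24 and -0.30, and for Mir146 they were 0.03, -0.0581, -0.0642, -0.25 and -0.31. No paired analysis was possible because the series has 1 group. With 209 to 267 counts, Mir142 and Mir223 are measured less finely than Mir150 and Mir155.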
